A study of Bos taurus with 6 samples.

Results

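Interferon-stimulated genes were examined in bovine blastocysts produced in vitro, in 3 RNA sequencing libraries from embryos with low survival after vitrification (low cryosurvival) and 3 from embryos with high survival (high cryosurvival). The genes were chosen by name from a list of 8, namely IFITM3, IFITM1, IFITM2, ISG15, MX1, MX2, IFI6 and IRF1. Of these, IFITM3, ISG15, MX1, IFI6 and IRF1, that is 5 of 8, were among the 9537 genes of the deposited table. IFITM1, IFITM2 and MX2 were not analysed here. The embryos of both groups were grown in the same kind of medium, a synthetic oviduct fluid. The sample titles also carry the codes NV for each low and V for each high cryosurvival library, and the labels do not explain these codes. The labels do not say if the sequenced embryos had themselves been vitrified, nor if each library stands for its own culture or pool. P-values therefore measure only the spread between these libraries, which may be technical.

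Interferons are cytokines that bind paired receptor chains such as IFNAR1, and the receptors act through JAK kinases and STAT transcription factors to switch on interferon-stimulated genes. STAT2 and IRF9 take part in carrying the signal of type I interferons to these genes. In cattle the trophectoderm, the outer epithelium of the blastocyst, secretes interferon tau, the signal by which the mother recognises pregnancy, and interferon tau induces ISG15 and MX1 in the uterus and in blood leukocytes. IFITM3 is a membrane protein of endosomes that hinders the entry of viruses. The proteins of the IFITM family have close sequences, and RefSeq's annotation of ARS-UCD2.0 gives IFITM3 as a synonym of 2 separate loci and as the symbol of none. The IFITM3 values may therefore include reads of related IFITM genes, and the sources used here do not name the locus that was counted.

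Depth was lowest in low cryosurvival library 2, at 14651477 recovered reads. The reads recovered from the table came to between 14651477 and 19467022 in the low cryosurvival libraries and between 17591314 and 18987154 in the high cryosurvival libraries. Values were CPM, that is, read counts divided by a scaled library size. They are compared between libraries for one gene at a time, since CPM is not scaled to the length of the transcript. A read stood for 0.0751 CPM in low cryosurvival library 2 and for 0.0499 to 0.0560 CPM in the others. The CPM of all genes summed to 1100411 in low library 2 and to between 960647 and 995602 in the others. Trophectoderm markers were abundant in every library, with 10 of 12 listed markers summing to between 27660 and 37970 CPM among low and between 32230 and 35660 CPM among high cryosurvival libraries. Low cryosurvival library 2 stood apart from the other libraries. It held the lowest value of 35.5% of all genes and the highest value of 34.5%, whereas 8.90% and 8.02% of all genes had their lowest and highest value in high cryosurvival library 2.

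None of the 5 interferon-stimulated genes passed a test between the groups. Limma on log2(CPM + 1) called 0 of the 5 genes at an adjusted p of 0.05 over all genes, against 0% of all 9537 genes. At an unadjusted p below 0.05 the count was also 0 of 5, against 12.0% of all genes (1142 genes), and voom on the recovered reads called 0 of the 5 as well. The authors' deposited table called 0 of the 5, against 1.20% of all genes (114 genes). In 0 of the 5 did the libraries of one group all lie above those of the other, against 21.0% of all genes. The median difference of the 5 genes, low minus high, was -0.06 on the log2 scale, beside 0.0002 over all genes. The 95% intervals were wide for IFITM3, ISG15, MX1 and IFI6 and narrow for IRF1, and a p that misses the threshold does not show that the groups were alike.

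IFITM3 was at 21.5, 69.2 and 28.4 CPM in low cryosurvival libraries 1, 2 and 3 and at 38.1, 31.1 and 35.2 CPM in high cryosurvival libraries 1, 2 and 3. Low library 2 was far above every other library, and low libraries 1 and 3 were the lowest. The means were 39.7 ± 25.8 CPM among low and 34.8 ± 3.52 among high cryosurvival libraries (SD, n = 3 each). The log2 difference was 0.01 with a standard error of 0.40 and a 95% interval from -0.94 to 0.96 (limma adjusted p = 0.995). The IFITM3 difference, near 0, changed sign without either library numbered 2. Without high cryosurvival library 2 it was -0.06 (limma adjusted p = 0.997). Without low cryosurvival library 2 it was -0.47 (95% interval -0.82 to -0.12, limma adjusted p = 0.0741), and low libraries 1 and 3 then lay below all high libraries. Such a separation, lower in low, was common in that set of libraries, where 27.5% of all genes showed it and limma called 13.6% of all genes.

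**Figure D1:**
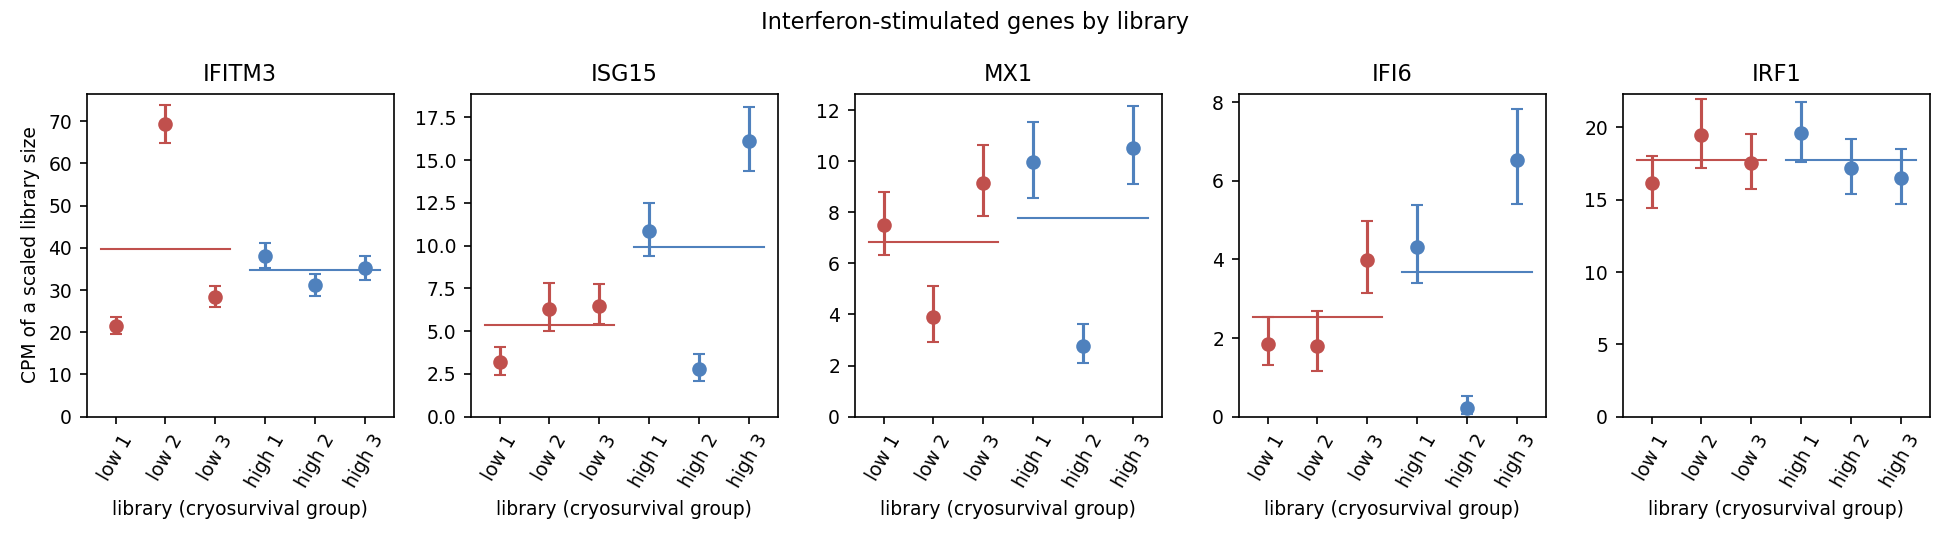
CPM of the 5 genes in each library, low cryosurvival (red, left) and high cryosurvival (blue, right). Points are libraries, bars the exact 95% Poisson interval of the reads (counting error only), and horizontal lines the group means. IFITM3 peaks at 69.2 CPM in low library 2, while ISG15, MX1 and IFI6 have their minimum of 2.78, 2.78 and 0.21 CPM in high library 2.

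ISG15 encodes a ubiquitin-like protein that is attached to other proteins during the interferon response. It was at 3.195, 6.31 and 6.49 CPM in low cryosurvival libraries 1, 2 and 3 and at 10.9, 2.78 and 16.1 CPM in high libraries 1, 2 and 3. High libraries 1 and 3 were the highest of all and high library 2 the lowest, so the low libraries lay between them. The means were 5.33 ± 1.85 CPM among low and 9.93 ± 6.73 among high cryosurvival libraries (SD, n = 3 each). The log2 difference was -0.58 with a standard error of 0.56 and a 95% interval from -1.90 to 0.74 (limma adjusted p = 0.801). The authors' deposited table gave a log2 fold of -0.90, turned to low over high, with a p of 0.071 and an adjusted p of 0.63.

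MX1, a dynamin-like GTPase that blocks the replication of viruses, was at 7.49, 3.91 and 9.16 CPM in low cryosurvival libraries 1, 2 and 3 and at 9.97, 2.78 and 10.5 CPM in high libraries 1, 2 and 3. Both groups held high and low values, and library 2 was the lowest of its group in each. The means were 6.85 ± 2.69 CPM among low and 7.76 ± 4.33 among high cryosurvival libraries (SD, n = 3 each), with a log2 difference of -0.06 and a 95% interval from -1.20 to 1.09 (limma adjusted p = 0.988). MX2, its relative, lies next to MX1 in the annotation of ARS-UCD2.0.

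IFI6, a small membrane protein whose gene is induced by type I interferons, had the widest range of the 5 genes. It was at 1.85, 1.80 and 3.98 CPM in low cryosurvival libraries 1, 2 and 3 and at 4.31, 0.21 and 6.55 CPM in high libraries 1, 2 and 3. The value in high library 2 rested on 4 reads, with an exact 95% Poisson interval from 0.0572 to 0.537 CPM, against 77 and 118 reads in high libraries 1 and 3. The highest library was 31.2 times the lowest. The log2 difference between the groups was -0.10 with a 95% interval from -1.67 to 1.48 (limma adjusted p = 0.985). Its sign was positive at a pseudocount of 0.5 or 0.1. The means were 2.54 ± 1.24 CPM among low and 3.69 ± 3.21 among high cryosurvival libraries (SD, n = 3 each). The authors' deposited table gave a log2 fold of -0.53, turned to low over high, with an adjusted p of 0.979.

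IRF1 encodes a transcription factor that responds to interferon gamma and to inflammatory cytokines, and it was the steadiest of the 5 genes. It was at 16.2, 19.5 and 17.5 CPM in low cryosurvival libraries 1, 2 and 3 and at 19.6, 17.2 and 16.5 CPM in high libraries 1, 2 and 3. The libraries of the groups interleaved. The means were 17.7 ± 1.65 CPM among low and 17.8 ± 1.62 among high cryosurvival libraries (SD, n = 3 each), and the log2 difference of -0.005 had a 95% interval from -0.32 to 0.31 (limma adjusted p = 0.994).

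ISG15, MX1 and IFI6 shared their extreme libraries, and these lay within the high cryosurvival group. All 3 had their lowest value in high cryosurvival library 2 and their highest in high library 3, followed by high library 1. The low libraries between them rose in the order 2, 1 and 3 for MX1 and IFI6 and 1, 2 and 3 for ISG15. The exact 95% Poisson intervals for ISG15 reached 3.635 CPM in high library 2 and began at 9.39 and 14.3 CPM in high libraries 1 and 3, so the gap between high library 2 and the other high libraries exceeded counting error. The ISG15 interval of high library 2 overlapped that of low library 1, which began at 2.46 CPM, and for MX1 it overlapped that of low library 2, which began at 2.92 CPM. For IFI6 the interval of high library 2 lay below those of all other libraries. Across the 6 libraries, log2(CPM + 1) of IFI6 had a Pearson r of 0.92 with MX1 and of 0.89 with ISG15, and ISG15 and MX1 had an r of 0.69. IFITM3 had an r of 0.03 with IFI6, -0.33 with MX1, 0.34 with ISG15 and 0.76 with IRF1. These correlations are descriptions over 6 libraries that share their depth scaling and hold 2 groups. Low abundance of such transcripts in a library of whole embryos can mean fewer cells that make them or less RNA per cell, and these cannot be told apart.

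The spread of these genes within groups was large for their level. The pooled standard deviation within groups on the log2 scale was 1.05 for IFI6, 0.87 for ISG15, 0.75 for MX1, 0.62 for IFITM3 and 0.12 for IRF1. Among the 793 genes with a mean CPM within 1.5 times that of IFI6, the median was 0.28, and 0 had a larger spread than IFI6. ISG15 exceeded 98.0% of the 1007 genes of its level, IFITM3 96.0% of 2003 and MX1 95.9% of 995, whereas IRF1 exceeded 15.9% of 1542.

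Some other interferon-stimulated genes were also lowest in high cryosurvival library 2. Among 28 further effectors, induced genes and enzymes of ISG15 attachment, 8 (28.6%) had their lowest value in high library 2 and 0 their highest, beside 8.90% and 8.02% of all genes. Low library 2 held the lowest value of 9 of the 28 (32.1%), beside 35.5% of all genes. High library 2 was not the only library to stand out, since low library 3 held the highest value of 11 of the 28 (39.3%), beside 11.7% of all genes. The following genes were named after their values were seen. OAS1Y, an oligoadenylate synthetase that senses double-stranded RNA, was at 1.15, 0.901 and 1.57 CPM in low libraries 1, 2 and 3 and at 1.96, 0.105 and 1.997 CPM in high libraries 1, 2 and 3. RSAD2, the antiviral enzyme viperin, was at 2.55, 0.901 and 2.51 CPM in low and at 2.35, 0.629 and 3.27 CPM in high libraries 1, 2 and 3. IFI27, a small hydrophobic protein gene induced by interferon, was at 1.90, 4.36 and 4.08 CPM in low and at 6.39, 1.101 and 4.88 CPM in high libraries 1, 2 and 3. Each of these had its minimum in high library 2, and the values there rested on 2, 12 and 21 reads. HERC6, a ligase related to the one that attaches ISG15, was lowest there as well, at 0.419 CPM from 8 reads. Not every gene of these lists followed, since SAMHD1, an enzyme that degrades deoxynucleotides, was at 5.18 CPM in low library 2 against 12.6 CPM in high library 2. The 3 measured of 8 listed leukocyte markers summed to 12.1, 8.19 and 9.74 CPM in low libraries 1, 2 and 3 and to 14.6, 11.95 and 14.7 CPM in high libraries 1, 2 and 3, so high library 2 was the lowest of its group but not of all. CD14, CD68 and CD74 were the measured ones. The 2 measured of 4 listed macrophage markers, CSF1R and AIF1, summed to between 3.51 and 6.38 CPM in low and between 2.62 and 3.25 CPM in high libraries, with the lowest sum in high library 2. Their part in the pattern was not tested.

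**Figure D2:**
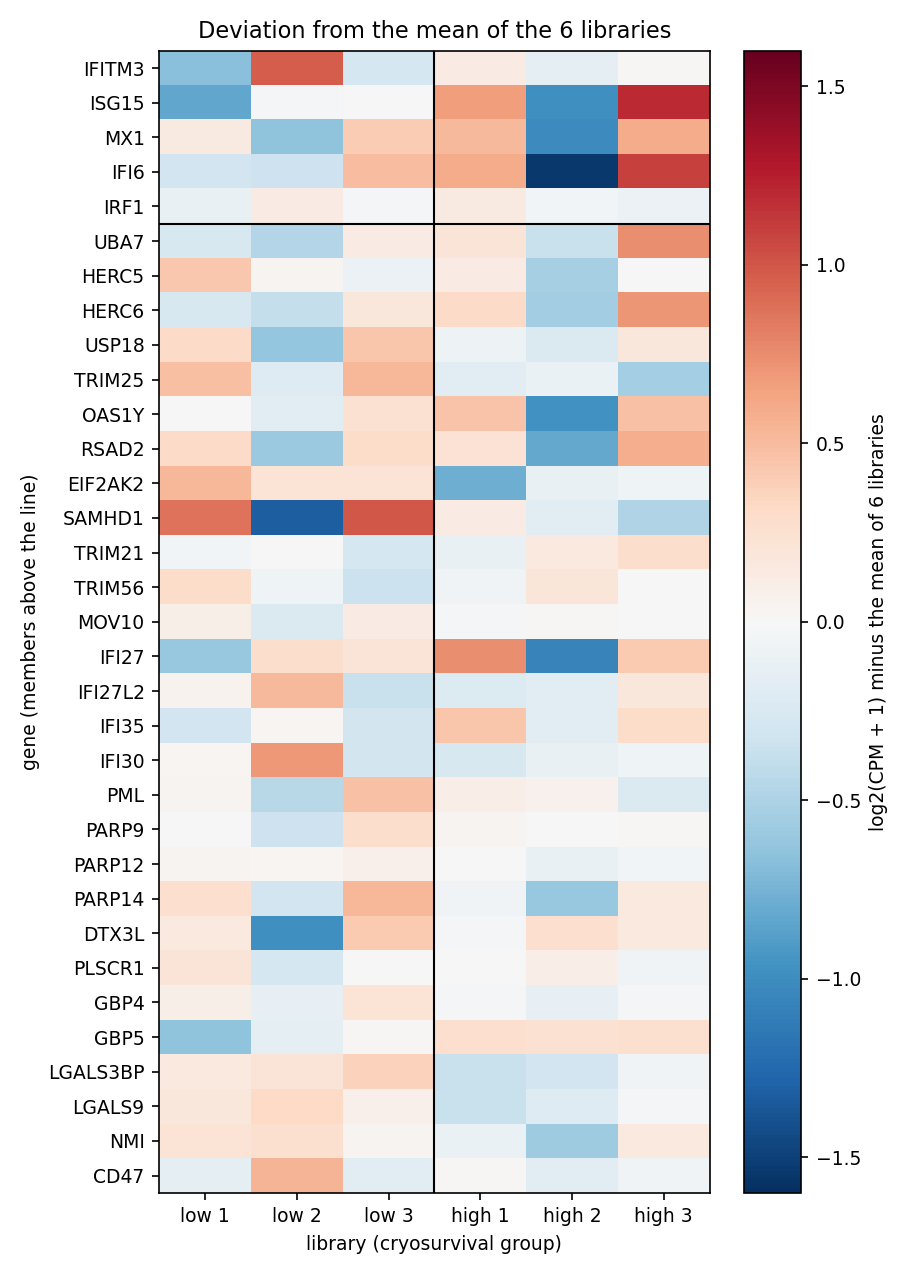
Deviation of log2(CPM + 1) from the mean of the 6 libraries for 33 interferon-stimulated genes, low cryosurvival libraries left and high cryosurvival libraries right of the vertical line. High library 2 is low for ISG15, MX1, IFI6, OAS1Y, RSAD2 and IFI27, and low library 2 is high for IFITM3 and low for SAMHD1 and DTX3L.

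Without high cryosurvival library 2, left out because of these same values and thus as a description only, 3 of the 5 genes had low cryosurvival libraries that all lay below the high ones. They were ISG15, MX1 and IFI6, against 14.2% of all genes with this order in the same libraries. High libraries 1 and 3 held the highest values of these genes, so leaving out high library 2 fixed this order in advance. The share over all genes is therefore no test of it. The log2 differences were then -1.22 for ISG15, -0.89 for IFI6 and -0.58 for MX1, with limma adjusted p values of 0.486, 0.604 and 0.775. Without high library 3 the difference of ISG15 was -0.13 and that of IFI6 0.43. Of the 5 genes, only ISG15 had a difference that kept its sign with each library left out, between -1.22 and -0.13.

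**Figure D3:**
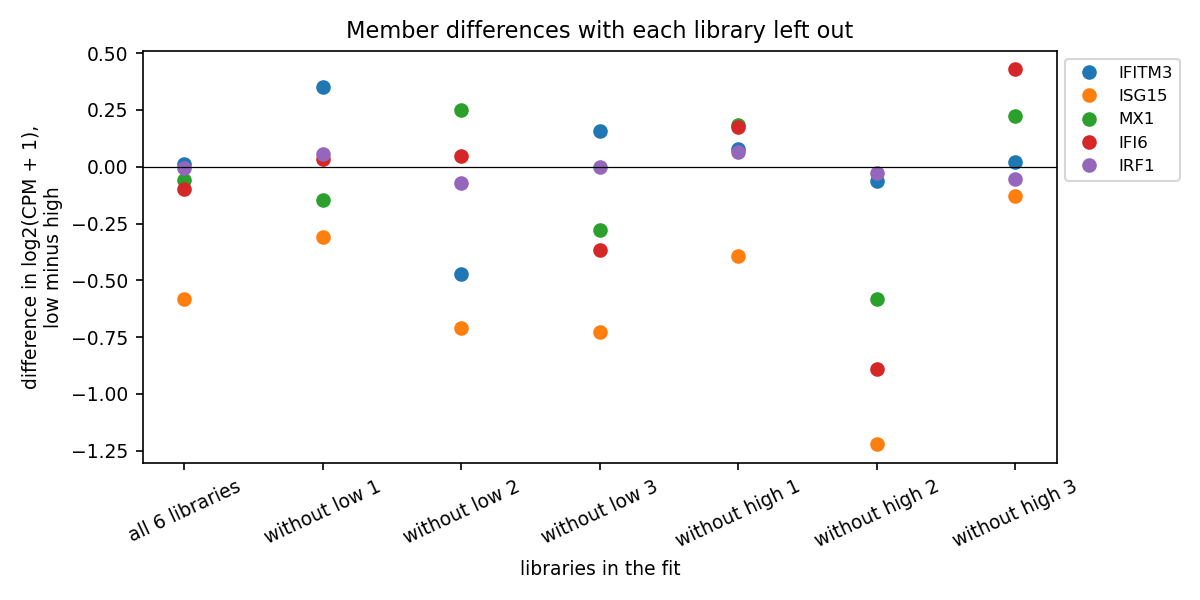
Difference in log2(CPM + 1), low minus high cryosurvival, for each of the 5 genes with all 6 libraries and with each library left out in turn. ISG15 stays below 0 throughout, IFITM3 ranges from -0.47 to 0.35 and IFI6 from -0.89 to 0.43.

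The high IFITM3 value of low cryosurvival library 2 came with a shift of gene families that encode subunits of large complexes. IFITM3 in this library was 1.17 above the mean of the other 5 libraries on the log2 scale. In the same library the median deviation was 0.77 for 76 cytosolic ribosomal protein genes, with 76 above 0, and 0.77 for 24 NDUFA and NDUFB genes of respiratory complex I, with 24 above 0. It was 0.58 for 72 mitochondrial ribosomal protein genes, with 67 above 0, and 0.60 for 16 proteasome subunit genes, beside -0.01 over all genes. In low library 1, IFITM3 was 0.80 below the other libraries, where the cytosolic ribosomal protein genes had a median deviation of -0.40 and the complex I genes of -0.52. In high library 1 the signs were mixed, with IFITM3 at 0.15, the cytosolic ribosomal protein genes at -0.04 and the proteasome genes at -0.13, of which 1 of 16 was above 0. The mitochondrial ribosomal protein genes were at 0.02 and the complex I genes at 0.01 there. IFITM3 and the medians of all these families were below 0 in high library 2 and above 0 in high library 3. The families were chosen after the values of IFITM3 were seen, and their part in the IFITM3 value was not tested. MX1 and IFI6 deviated the other way in low library 2, by -0.77 and -0.40, and ISG15 by -0.04.

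**Figure D4:**
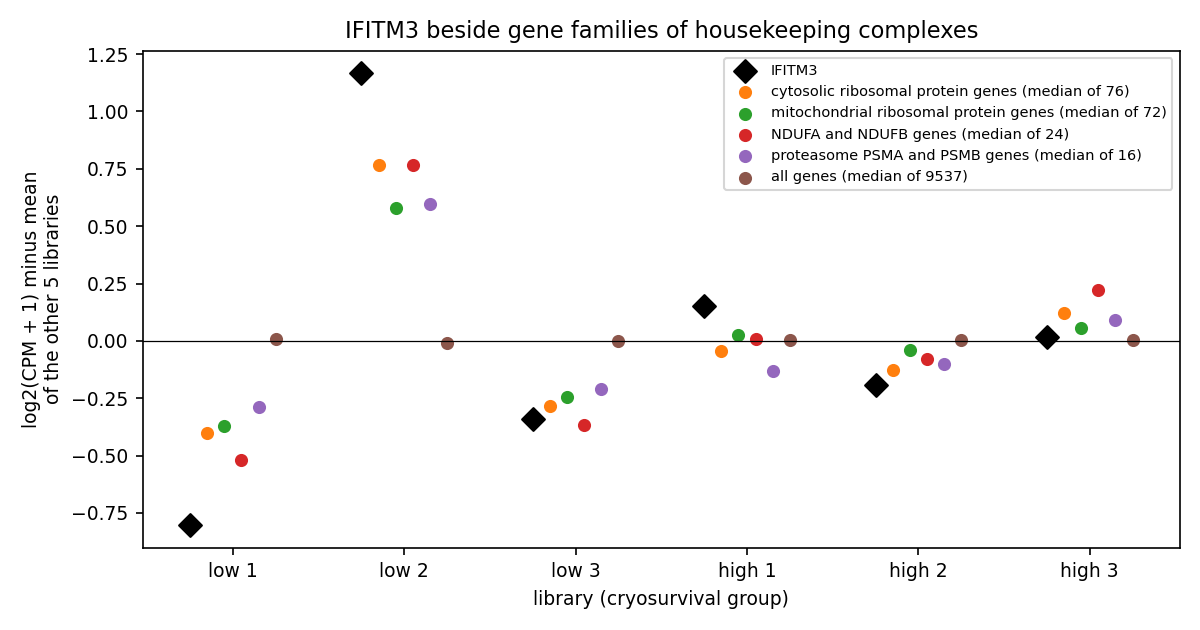
Deviation of each library from the mean of the other 5 libraries in log2(CPM + 1), for IFITM3 (black diamonds) and as medians over 4 gene families and over all genes (circles). IFITM3 and the families are all above 0 in low library 2 and all below 0 in low libraries 1 and 3.

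Among 7947 genes with a mean of at least 5 CPM, those whose log2(CPM + 1) was most like that of IFITM3 over the 6 libraries were MRPL18, a mitochondrial ribosomal protein gene, MGST3, a microsomal glutathione transferase, and SNRNP27, a splicing protein, with a Pearson r of 0.998, 0.998 and 0.997. SNRNP27 was at 18.7, 45.9 and 23.0 CPM in low and at 29.6, 23.8 and 27.6 CPM in high libraries 1, 2 and 3, which is the same order of libraries as that of IFITM3. Those most like MX1 were TERF2, which binds telomeres, VIM, the intermediate filament protein vimentin, and PRKCQ, a protein kinase C (r of 0.97, 0.97 and 0.96). VIM was at 8.69, 5.18 and 11.3 CPM in low and at 12.7, 1.99 and 11.3 CPM in high libraries 1, 2 and 3, again with its minimum in high library 2. Those most like IFI6 were ELMOD2, TERF2 and MRC2, and those most like ISG15 were SAC3D1, KLHL12 and RAP1GDS1, with r from 0.97 to 0.99 and from 0.97 to 0.98. A high r shows a like shape and not a like size, since ELMOD2 ranged only from 20.47 to 21.6 CPM in low and from 18.1 to 22.7 CPM in high libraries. DUS1L, IGFBP2 and PCOLCE were most like IRF1, with r from 0.96 to 0.97.

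Elsewhere in the interferon pathway, the authors' deposited table called a receptor chain and an inhibitor higher in low cryosurvival, whereas limma called neither. The pathway lists held 145 further entries, in which some genes stood repeatedly or under several names, and 72 genes were measured. Of these the authors' deposited table called 2 (2.78%), IFNAR1 and SOCS3, both higher in low, against 1.20% of all genes. Limma called 0 of the 72, and 13 (18.1%) had an unadjusted p below 0.05, against 12.0% of all genes. The libraries of the groups did not overlap for 13 genes higher in low (18.1%, against 10.4% of all genes) and for 1 lower in low (1.39%, against 10.6%). The median difference of the 72 genes was 0.11, with 50 above 0. Over all 9537 genes the median was 0.0002, with 4772 above 0, which is also the background for the counts of signs below. Without low cryosurvival library 2 limma called 13 of the 72, 12 higher and 1 lower in low, which is 18.1% against 13.6% of all genes. With any other single library left out limma called 0 of all genes. Adjusted p values without low library 2, here and below, are therefore given as descriptions only. Interferon ligand genes, interferon tau included, were not analysed here.

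IFNAR1, a chain of the type I interferon receptor, rose in low cryosurvival embryos in the authors' deposited table (adjusted p = 0.038, log2 fold of 0.98 turned to low over high). It was at 22.6, 14.6 and 21.5 CPM in low libraries 1, 2 and 3 and at 9.58, 11.6 and 8.60 CPM in high libraries 1, 2 and 3. Every low library lay above every high library. The limma log2 difference was 0.90 with a standard error of 0.20 (limma adjusted p = 0.179), and without low library 2 it was 1.09 (limma adjusted p = 0.0145). With any other single library left out the limma adjusted p of IFNAR1 was between 0.354 and 0.632. STAT2 and IRF9, named here for their role after their values were seen, had overlapping groups. STAT2 averaged 21.5 ± 10.4 CPM among low and 23.8 ± 1.11 among high cryosurvival libraries, and IRF9 10.3 ± 0.645 and 11.0 ± 1.22 CPM (SD, n = 3 each; limma adjusted p = 0.881 and 0.909). For STAT2 low library 2 was the lowest of all libraries. STAT5A, which serves cytokine receptors, was at 4.04 ± 1.55 CPM among low and 2.01 ± 0.312 among high cryosurvival libraries (limma adjusted p = 0.347, and 0.0128 without low library 2). STAT3 averaged 99.8 ± 5.67 CPM among low and 92.5 ± 8.58 among high cryosurvival libraries (limma adjusted p = 0.844).

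SOCS3, an inhibitor that dampens cytokine receptor signals, rose in low cryosurvival embryos in the authors' deposited table (adjusted p = 0.046). It was at 9.29, 9.09 and 7.80 CPM in low libraries 1, 2 and 3 and at 5.04, 4.46 and 2.88 CPM in high libraries 1, 2 and 3, and the groups did not overlap. The limma log2 difference was 0.94 (limma adjusted p = 0.164, and 0.0346 without low library 2). Of the 9 measured negative regulators 8 had a difference above 0, among them PIAS4, at 64.1 ± 12.5 CPM among low and 45.7 ± 5.999 among high cryosurvival libraries (limma adjusted p = 0.368), and PTPN2 had a difference of -0.07. USP18, the enzyme that removes ISG15 from proteins, also named after its values were seen, averaged 2.67 ± 1.29 CPM among low and 2.301 ± 0.481 among high cryosurvival libraries (SD, n = 3 each; limma adjusted p = 0.956).

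Sensors and adaptors went in both directions, with 6 of 9 above 0. MAVS, the mitochondrial adaptor of the RNA sensors, was at 20.2, 16.1 and 17.0 CPM in low and at 11.7, 12.1 and 10.8 CPM in high libraries 1, 2 and 3. Its groups did not overlap, with a log2 difference of 0.58 (limma adjusted p = 0.182, and 0.0217 without low library 2). DHX58, a regulator among the RNA sensors, averaged 1.33 ± 1.05 CPM among low and 2.36 ± 0.642 among high cryosurvival libraries, with a difference of -0.61, and MYD88, an adaptor of toll-like receptors, had one of -0.25 (limma adjusted p = 0.571 and 0.746). On the list of IRF factors other than IRF1 and IRF9, 5 were measured and had a difference above 0, and limma called 0 of them, whereas IRF1 and IRF9 had differences of -0.005 and -0.07. IRF7, which drives interferon genes, was at 172, 264 and 165 CPM in low and at 162, 167 and 167 CPM in high libraries 1, 2 and 3. Its difference was 0.24 with all libraries and 0.03 without low library 2. IRF8 had a difference of 0.38 (limma adjusted p = 0.517).

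Among the effectors, EIF2AK2, the kinase PKR that halts translation on double-stranded RNA, was at 3.695, 2.78 and 2.775 CPM in low and at 0.896, 1.99 and 2.11 CPM in high libraries 1, 2 and 3. The groups did not overlap, and the log2 difference was 0.64 (limma adjusted p = 0.324). SAMHD1 was at 27.3, 5.18 and 29.8 CPM in low and at 16.0, 12.6 and 10.1 CPM in high libraries 1, 2 and 3. Its log2 difference was 0.36, and 1.11 without low library 2 (limma adjusted p = 0.906 and 0.0206). MOV10, an RNA helicase, averaged 662.6 ± 87.6 CPM among low and 660.3 ± 7.98 among high cryosurvival libraries (limma adjusted p = 0.996). Of the enzymes of ISG15 attachment, UBA7, the activating enzyme, had a difference of -0.39 and TRIM25, a ligase, one of 0.54 (limma adjusted p = 0.715 and 0.440). Without low library 2 TRIM25 had a difference of 0.78 (limma adjusted p = 0.0267).

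Among further induced genes LGALS3BP, a secreted glycoprotein, averaged 53.5 ± 4.24 CPM among low and 38.1 ± 4.42 among high cryosurvival libraries, and GBP5, a guanylate-binding protein, 0.936 ± 0.441 and 1.71 ± 0.0302 CPM (SD, n = 3 each; limma adjusted p = 0.245 and 0.347). Without low library 2 the adjusted p of LGALS3BP by limma was 0.0465. The groups did not overlap for either, LGALS3BP being higher and GBP5 lower in low. PARP12 had a difference of 0.10 (limma adjusted p = 0.836), again with groups that did not overlap. In antigen presentation TAP1, which carries peptides into the endoplasmic reticulum, was at 73.7, 50.8 and 70.6 CPM in low and at 39.7, 43.8 and 45.0 CPM in high libraries 1, 2 and 3, without overlap (limma adjusted p = 0.262, and 0.0161 without low library 2). TAP2, its partner, had a difference of 0.31 and B2M, the light chain of class I molecules, one of 0.17 (limma adjusted p = 0.827 and 0.861).

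**Figure D5:**
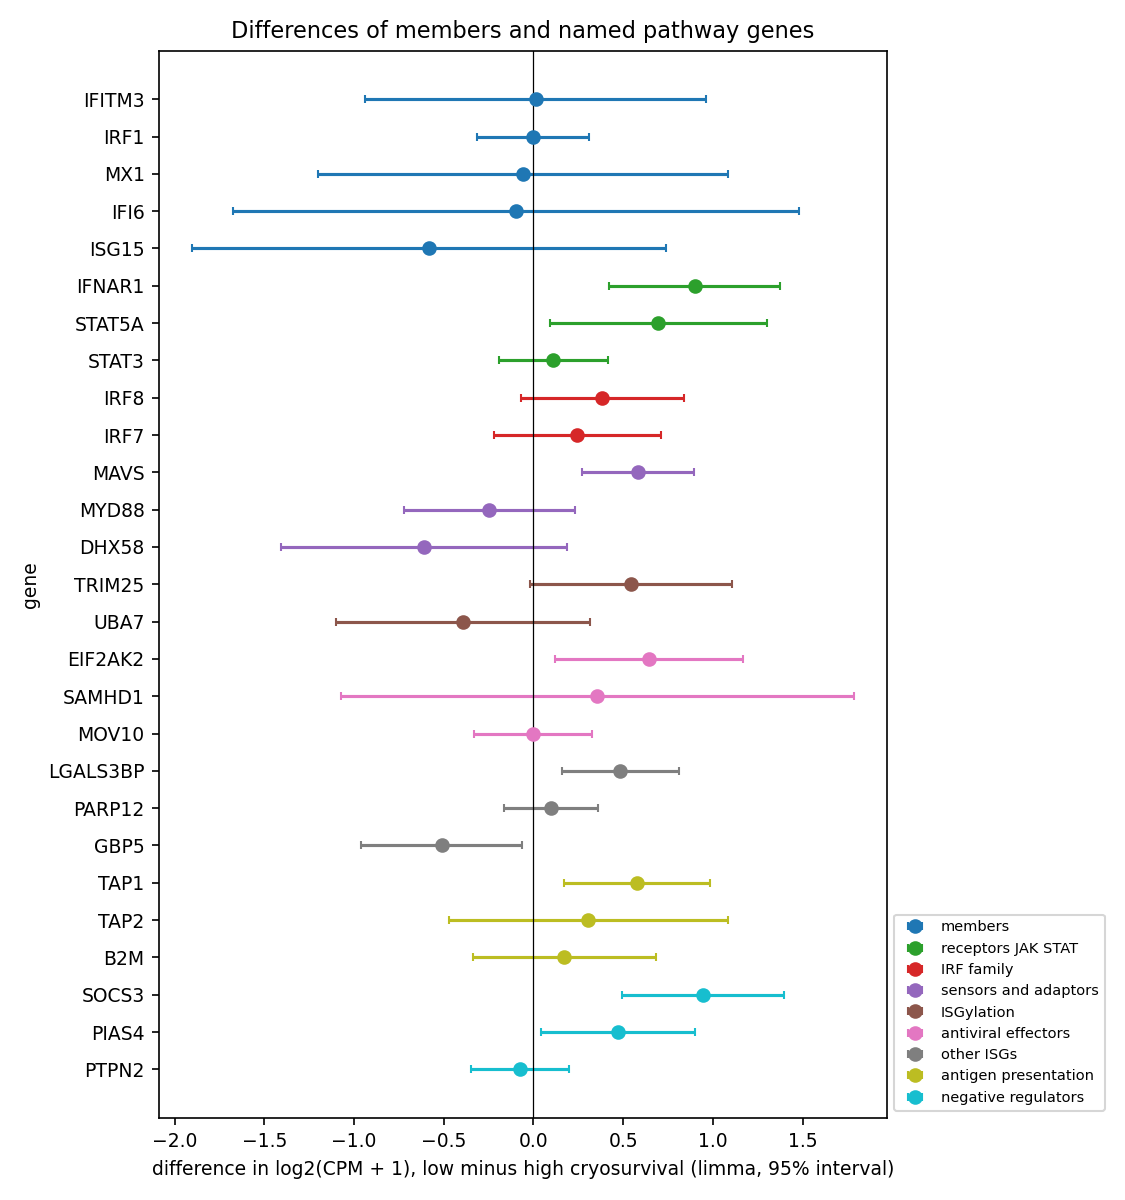
Difference in log2(CPM + 1), low minus high cryosurvival, with 95% limma intervals, for the 5 genes at the top and for named pathway genes coloured by list. The intervals of IFITM3, ISG15, MX1 and IFI6 span 0 widely, while those of IFNAR1, MAVS, TAP1 and SOCS3 lie above 0 and GBP5 below; limma called 0 of these genes after adjustment over all genes.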

How the data were processed

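RNA with an integrity number of at least 7.7 was made into NEBNext Ultra II libraries, per the labels' protocols. The submitters' processing notes name, without roles, DESeq 1.12.1, HTSeq 0.5.4p2, TopHat2 2.0.8, SAMtools 0.1.18, Cufflinks 2.1.1 and Bowtie2 2.1.0. Genome build, annotation, use of strand and low-value filter are unstated, so reads of overlapping or antisense genes cannot be told apart. The authors deposited CPM per gene and library and their own test, whose log2 fold (high over low) was turned here. Values up to 1000 CPM gave whole reads, within 0.05 read, in 100% of cases. The lowest mean of any gene was 0.737 CPM.

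The main test was limma 3.58.1 (R 4.3.3) without covariate, fitted to log2(CPM + 1) of all 9537 genes. P-values were adjusted by Benjamini-Hochberg at 0.05. The log2(CPM + 1) scale understates the change of low genes. The test was also run on simulated data in which all genes shared the same dispersion and no library stood apart. That run does not show how the test performs for genes as variable as IFI6. An exact permutation test of 3 against 3 cannot go below p = 0.1 and was not made. Poisson intervals are exact, at 95%, and cover counting error only. Members and lists were chosen with earlier results of these data known. Named pathway genes were, in each list, those called by limma or by the authors, the 2 with the largest difference and the one with the highest mean, and for likeness the 3 nearest genes of each member. Genes outside this rule are said to be named after their values were seen. Alternatives were pseudocounts of 0.5 and 0.1, a minimum mean of 5 CPM, TMM scaling, a replicate block, each library left out and, added after the values were seen, voom on the recovered reads.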

Additional observations from a re-analysis of the deposited data

How the results depend on the processing

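Under the 12 alternatives limma called 0 of the members tested. These were 5 in each but the minimum of 5 CPM, where IFI6 was left out and 4 were tested. TMM scaling nearly repeated the main fit, with a difference of -0.58 for ISG15 in each, so it adds little to this count. The number of all genes called was 0 with all libraries, 10 and 7 at pseudocounts of 0.5 and 0.1, 7 among genes of at least 5 CPM, and between 0 and 1300 with single libraries left out, the 1300 without low cryosurvival library 2. The number of the 5 genes whose groups did not overlap was between 0 and 3 with single libraries left out, 1 without low library 2 and 3 without high library 2. Their median difference ranged from -0.58 to 0.08 with single libraries left out. Signs turned often among differences near 0. At pseudocounts of 0.5 and 0.1 that of IFI6 was 0.002594 and 0.24, and voom gave 0.40 for IFI6, 0.02063 for MX1 and -0.03143 for IFITM3; the cause was not tested. With single libraries left out the differences ranged from -0.47 to 0.35 for IFITM3, from -0.58 to 0.25 for MX1, from -0.89 to 0.43 for IFI6 and from -0.07012 to 0.06431 for IRF1. The ranges were -0.62 to 0.29 for IFI27, -0.07026 to 0.11 for MOV10, -0.44 to 0.28 for OAS1Y, -0.40 to 0.30 for RSAD2, -0.05091 to 1.11 for SAMHD1, -0.55 to 0.20 for STAT2, -0.07652 to 0.58 for TAP2 and -0.11 to 0.42 for USP18.

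The labels give both groups the numbers 1 to 3. Same-numbered libraries had correlations of deviations over all genes of 0.12, -0.26 and -0.31. Deviations from a mean of 3 libraries sum to 0 within each group, so these correlations cannot decide if the numbers pair the libraries. With the number as a replicate block limma called 0 genes and the median difference of the 5 genes was -0.06. The count models edgeR and DESeq2 were not run on these CPM values, and voom on the recovered reads was used in their place. In high library 2, IFI6 rested on 4 reads and OAS1Y on 2, so depth limits the folds of these genes there.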

Other observations

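ISG12(B), a relative and direct neighbour of IFI27 in the annotation of ARS-UCD2.0 that was on no list and was named after its values were seen, rose in low cryosurvival embryos in the authors' deposited table (adjusted p = 0.018, log2 fold of 1.35 turned to low over high). It was at 3.295, 3.53 and 4.50 CPM in low libraries 1, 2 and 3 and at 1.29, 1.26 and 1.89 CPM in high libraries 1, 2 and 3, and the groups did not overlap. The limma log2 difference was 0.95 with a standard error of 0.16 (limma adjusted p = 0.142), and 0.98 without low library 2 (limma adjusted p = 0.0207). IFI27, with a log2 difference of -0.07, did not share this order, and reads of these related genes may be split between them.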
